A study of Mus musculus with 10 samples.

Results

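The levels of 10 genes of the TGF-beta and BMP pathway and of its ID targets were examined in mouse haematopoietic stem and progenitor cells in which the HOXB4 transcription factor was switched off or left active. The genes were Id1, Id2, Id3, Bambi, Smad6, Smad7, Smad3, Tgfbr1, Tgfbr2 and Tgfbr3. Every probe set with 1 of these symbols in the platform annotation was taken, which gave 20 of the 45037 probe sets on the array and 10 of the 18193 genes with a probe set of their own. The genes were chosen by their log2 levels, with the differences of the 4 h arrays from the others known, so their values after 4 h are a description without a test.

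All cells carried a retroviral HOXB4 transgene with a GFP marker and were transduced populations, not clones, as far as the labels describe them. HOXB4-ER is HOXB4 fused to the hormone-binding domain of the oestrogen receptor, which 4-hydroxytamoxifen (TMX) keeps active. HOXB4const is HOXB4 that does not need TMX. Every culture grew for 14 days with cytokines and 10 nM TMX, without serum, was sorted for GFP-positive, lineage-negative, Sca1-positive, c-kit-positive cells, and was held for 12 h more with TMX. The 5 groups had 2 Affymetrix arrays each. HOXB4-ER cells were taken with TMX at 1 h and without TMX at 1 h and at 4 h, and HOXB4const cells after 1 h without TMX and after 1 h with it. No 4 h culture with TMX, and none of HOXB4const, is part of the data used here, so the 4 h difference holds both the longer culture and the loss of TMX. The titles call the replicates biological. The labels do not say what arrays of 1 replicate number have in common.

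TGF-beta ligands bind a type II receptor (Tgfbr2), which phosphorylates a type I receptor (Tgfbr1), with betaglycan (Tgfbr3) as a coreceptor. The active receptor phosphorylates Smad3, which enters the nucleus with Smad4, while BMP receptors act through Smad1, Smad5 and Smad9. Smad6, Smad7 and the kinase-less pseudoreceptor Bambi are induced by the pathway and dampen it. ID proteins are helix-loop-helix proteins without a DNA-binding region. They are classic BMP targets that bind E proteins such as Tcf3 and keep them from DNA. In blood cells, TGF-beta restrains the cycling of stem cells, Id1 is tied to immature progenitors and Id2 to several lymphoid, dendritic and myeloid lineages.

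The RefSeq promoter table (build GRCm38.p6, from 250 bases before to 50 bases after the start) held a window for 6 of the 10 genes, with 7 windows in all. The windows of Id2 and Id3, the ID genes whose levels differed most between arrays, and of Smad6, for the palindrome it holds, are printed 5′ to 3′ on the gene's strand. Capitals mark GGCGCC, a GC-rich element known from BMP-responsive promoters, and the Smad element GTCT or its complement AGAC. The windows are chr12:25096043-25096342 on the minus strand for Id2, chr4:136143572-136143871 on the plus strand for Id3 and chr9:64022010-64022309 on the minus strand for Smad6.
Id2: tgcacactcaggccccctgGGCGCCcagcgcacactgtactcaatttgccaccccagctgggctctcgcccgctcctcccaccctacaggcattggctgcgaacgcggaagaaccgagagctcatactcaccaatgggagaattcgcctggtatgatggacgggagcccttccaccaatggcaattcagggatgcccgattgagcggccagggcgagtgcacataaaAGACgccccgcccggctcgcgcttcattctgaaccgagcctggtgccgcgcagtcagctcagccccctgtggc
Id3: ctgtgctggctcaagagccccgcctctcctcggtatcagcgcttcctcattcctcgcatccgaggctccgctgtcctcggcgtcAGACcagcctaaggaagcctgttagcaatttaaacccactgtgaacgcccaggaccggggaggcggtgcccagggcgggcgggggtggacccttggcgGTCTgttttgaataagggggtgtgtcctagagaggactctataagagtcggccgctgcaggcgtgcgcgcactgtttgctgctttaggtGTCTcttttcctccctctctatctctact
Smad6: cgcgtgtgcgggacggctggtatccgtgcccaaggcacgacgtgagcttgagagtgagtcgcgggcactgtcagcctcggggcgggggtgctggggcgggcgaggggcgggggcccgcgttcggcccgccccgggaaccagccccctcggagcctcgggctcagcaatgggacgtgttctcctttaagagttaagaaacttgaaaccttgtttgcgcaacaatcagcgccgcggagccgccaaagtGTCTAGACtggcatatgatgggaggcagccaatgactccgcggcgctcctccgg
The Id2 window held 1 GGCGCC, which began at -231 from the start and which 11.9% of the 32851 mouse windows in the table hold on either strand, and 1 AGAC at -23. The Id3 window held 3 copies of the Smad element, at -166, -68 and 22, and 0 copies of GGCGCC. The Smad element, GTCT or AGAC, is short and stands in 88% of all windows. The Smad6 window held the 8-base palindrome GTCTAGAC, which is made of both forms of that element and begins at -4. It occurs in 70 of the 32851 windows (0.213%), and was looked for after the windows had been read. CAGACA, which contains AGAC, stood in none of these 3 windows and in 21% of all windows. The homeodomain core TAAT was absent from the 3 windows and present in 58% of all, and the E-box CANNTG occurred once in Id2 and once in Smad6, against 72.3% of all windows with at least 1. The letters of a window show no binding.

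Values are log2 signals as deposited, on arrays scaled to the same mean signal, and pairs of values are given as replicate 2 and replicate 1. Where a gene has several probe sets, the brightest over the 10 arrays stands for it. With 2 arrays a group the precision is low. The median SD within groups was 0.50 among brighter probe sets, those with a mean level of at least the median of 4.05, and 1.33 among dimmer ones. A 95% interval for a withdrawal difference reached 1.33 to either side in the median of the brighter ones. Differences were fitted with limma over all 45037 probe sets, and errors of differences are its standard errors. After Benjamini-Hochberg adjustment 0 probe sets passed an adjusted p under 0.05 in any of the 7 comparisons (0%), while between 1509 (3.35%, after 4 h) and 6152 (13.7%, between replicate numbers) had an unadjusted p under 0.05. None of the 10 genes therefore passed a test, and the differences below are sizes with their errors.

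Kit, which encodes the c-kit of the sort, had a median level of 9.89. Cd34, Flt3 and Ptprc, which are not among the sort's named markers, had 11.3, 7.20 and 11.5. Ly6a, which encodes Sca1, was not analysed here. RNA of monocytes and macrophages differed by replicate number in every group: the summed signal of 9 measured markers was 862 to 2085 on replicate 2 arrays and 9033 to 13508 on replicate 1 arrays. Of these 9 markers, 7 had a mean level at or above the median of all probe sets, and the dimmest, C1qa, ranged from -0.70 to 2.90 (median 0.36). Gapdh controls at the 3′ end read higher than those at the 5′ end, which tells of RNA quality or of the length amplified, by 2.72 ± 1.08 for replicate 2 and 1.10 ± 0.26 for replicate 1 (SD, n = 5 each). In such bulk samples, fewer cells of a type and less RNA per cell cannot be told apart.

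**Figure D1:**
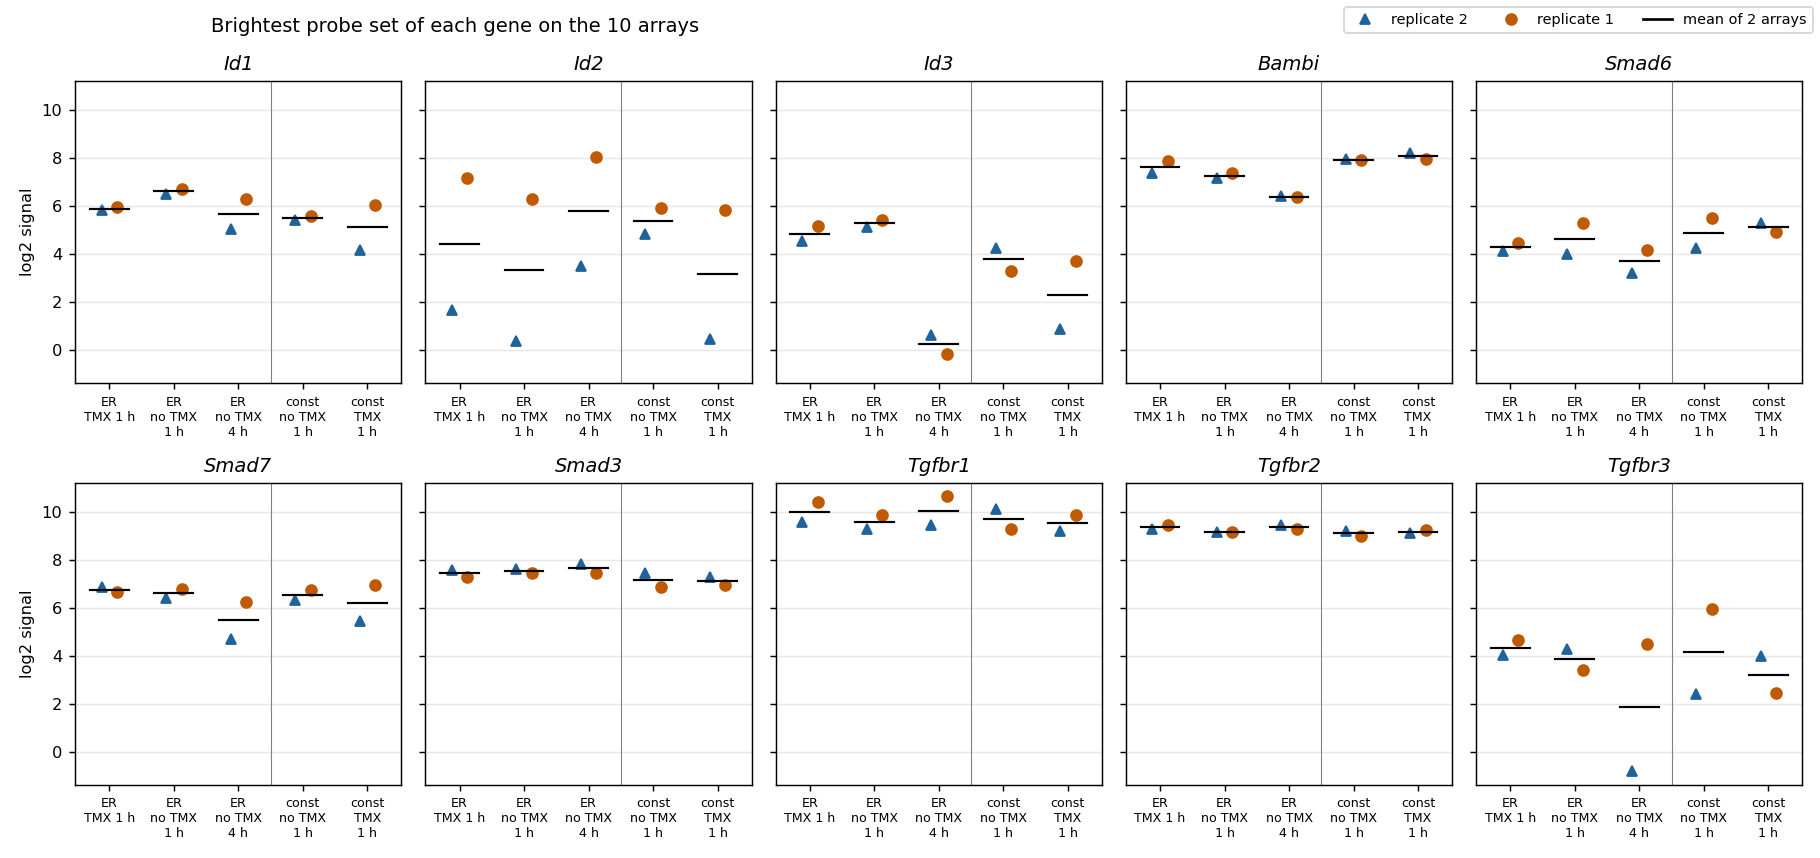
Log2 signal of the brightest probe set of each of the 10 genes on the 10 arrays. ER is HOXB4-ER, const is HOXB4const, triangles are replicate 2, circles are replicate 1 and lines are means of 2 arrays. Bambi (6.40 and 6.37) and Id3 (0.62 and -0.17) are lowest on the 4 h arrays, while Id2 splits by replicate number.

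Among the receptors, the ligand-binding Tgfbr2 was the steadiest of the 10 genes. Its probe set 1426397_at ranged from 8.98 to 9.45 over all 10 arrays, with an SD within groups of 0.11. It had 9.26 and 9.45 in HOXB4-ER cells with TMX, 9.14 and 9.16 after 1 h without and 9.45 and 9.29 after 4 h without. HOXB4const cells had 9.20 and 8.98 without TMX, against 9.11 and 9.23 with TMX. The 4 h difference was 0.01 ± 0.39. Both arrays after 1 h lay just below both with TMX, by a difference of −0.20 ± 0.39 (95% interval −1.13 to 0.72). The other 2 probe sets of Tgfbr2 were dim, with means of 2.57 and 2.34. One of them, 1422019_at, had -1.47 and 1.55 after 4 h against 2.50 and 3.59 with TMX, a difference that the bright probe set did not show.

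Tgfbr1, the type I receptor kinase, was also well above the middle of the arrays (1420895_at, mean 9.76). HOXB4-ER cells had 9.57 and 10.39 with TMX, 9.26 and 9.85 after 1 h without and 9.46 and 10.63 after 4 h without. These arrays overlapped, with a 4 h difference of 0.07 ± 0.63. HOXB4const cells had 10.11 and 9.26 without TMX and 9.17 and 9.87 with TMX. Its other 2 probe sets had means of 3.17 and 2.99 and 4 h differences of −1.28 ± 1.46 and 0.87 ± 1.26. The dimmer of them, 1420894_at, also gave 2.81 ± 1.26 at 1 h, with 3.18 and 4.75 without TMX against 0.32 and 1.98 with TMX, and −3.09 ± 1.26 between HOXB4-ER and HOXB4const cells with TMX. Both were without overlap, neither passed, and the bright probe set showed neither.

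The coreceptor Tgfbr3 was dim and scattered (1425620_at, mean 3.48, SD within groups 2.10). HOXB4-ER cells had 4.02 and 4.63 with TMX, 4.29 and 3.39 after 1 h without and -0.81 and 4.49 after 4 h without. The 4 h difference of −2.48 ± 1.79 rested on replicate 2, and it was 0.17 without that array. The gap between the Gapdh ends was 3.47 on that array. It was 3.98 and 2.93 on the HOXB4const replicate 2 arrays without and with TMX, where Tgfbr3 had 2.39 and 3.98, beside 5.94 and 2.44 on replicate 1. The second probe set, 1433795_at, gave −0.40 ± 0.99.

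Smad3, the receptor-activated Smad of TGF-beta and activin, stayed within 6.85 to 7.82 on its brightest probe set, 1454960_at. It had 7.58 and 7.29 in HOXB4-ER cells with TMX, 7.59 and 7.42 after 1 h without and 7.82 and 7.44 after 4 h without. HOXB4const cells had 7.42 and 6.85 without TMX, against 7.26 and 6.93 with TMX. The differences were 0.20 ± 0.44 after 4 h, 0.07 ± 0.44 after 1 h and 0.04 ± 0.44 in HOXB4const cells. Replicate 2 was higher than replicate 1 in 5 of 5 groups, by 0.17 to 0.58, although the arrays overlapped over the groups (0.35 ± 0.21, limma adjusted p = 0.519). Of the dimmer probe sets, 1450472_s_at, whose suffix marks probes that can match other transcripts, gave −0.44 ± 1.42 after 4 h and 1450471_at gave −1.34 ± 0.90.

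The 3 feedback inhibitors stood lower after 4 h in means. Bambi had the smallest spread of these. Its only probe set, 1423753_at, had 7.37 and 7.86 in HOXB4-ER cells with TMX, 7.15 and 7.37 after 1 h without and 6.40 and 6.37 after 4 h without. HOXB4const cells had 7.94 and 7.92 without TMX, against 8.19 and 7.97 with TMX. Both 4 h arrays lay below the other 8 arrays, and the SD within groups was 0.18. The 4 h difference was −1.23 ± 0.41, which is 2.34-fold lower. Within replicate numbers it was −0.97 and −1.49. Against 1 h without TMX the 4 h arrays gave −0.88 ± 0.41. At 1 h, where Bambi was tested, the difference was −0.35 ± 0.41 and the arrays overlapped. With each array centred on its median these were −0.46 and −0.74, while the 4 h difference from TMX stayed at −1.20. In HOXB4const cells the difference without TMX was −0.15, and −0.46 with arrays centred. Ordered by level, the groups ran from HOXB4const with TMX (8.08) through HOXB4const without TMX (7.93), HOXB4-ER with TMX (7.61) and HOXB4-ER at 1 h without (7.26) to HOXB4-ER at 4 h without (6.38). Of neighbours in this order only the third and the fourth overlapped, and the top pair differed by 0.15, under the SD within groups.

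Smad7, which blocks receptors of both branches, had 6.84 and 6.65 in HOXB4-ER cells with TMX, 6.42 and 6.77 after 1 h without and 4.70 and 6.24 after 4 h without (1423389_at). HOXB4const cells had 6.30 and 6.71 without TMX and 5.46 and 6.93 with TMX. The 4 h arrays did not overlap those with TMX, and the difference of −1.27 ± 0.70 came mostly from replicate 2 (−2.14, against −0.41 for replicate 1). Without the replicate 2 array at 4 h it was −0.51. The next lowest array was HOXB4const replicate 2 with TMX, at 5.46. The gap between the Gapdh ends was 3.47 on the 4 h array, 2.93 on that HOXB4const array and widest, at 3.98, on HOXB4const replicate 2 without TMX, where Smad7 was 6.30. The second probe set, 1443771_x_at, whose probes can match other transcripts, had a mean of 4.05 and gave −0.08 ± 0.77.

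Smad6, which acts mainly on the BMP branch and whose window holds the palindrome printed above, was near the middle of the arrays (1422771_at, mean 4.52). HOXB4-ER cells had 4.14 and 4.45 with TMX, 3.98 and 5.27 after 1 h without and 3.22 and 4.18 after 4 h without. HOXB4const cells had 4.23 and 5.51 without TMX, against 5.30 and 4.93 with TMX. The 4 h difference was −0.59 ± 0.67 and the arrays overlapped.

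Of the ID genes, Id1 was highest after 1 h. Its only probe set, 1425895_a_at, had 5.81 and 5.94 in HOXB4-ER cells with TMX, 6.52 and 6.71 after 1 h without and 5.02 and 6.27 after 4 h without. HOXB4const cells had 5.42 and 5.56 without TMX and 4.16 and 6.04 with TMX. The 1 h arrays lay above all other arrays, by a difference from TMX of 0.74 ± 0.71 (95% interval −0.94 to 2.41), which did not pass. The 1 h arrays also had a higher median over all probe sets, by 0.39, and with each array centred on its median the Id1 difference was 0.35. The same comparison in HOXB4const cells gave 0.39 ± 0.71, and the difference between the constructs was 0.35 ± 1.01. The 4 h arrays gave −0.23 ± 0.71 against TMX and −0.97 ± 0.71 against 1 h, the second of which was −0.55 with arrays centred.

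Id3 had 4.53 and 5.15 in HOXB4-ER cells with TMX, 5.12 and 5.43 after 1 h without and 0.62 and -0.17 after 4 h without on its only probe set, 1416630_at. HOXB4const cells had 4.26 and 3.27 without TMX, against 0.88 and 3.69 with TMX. The 4 h arrays were the lowest of all 10, at a level where a log2 value carries little information, and between 2.55% and 8.17% of the probe sets of a HOXB4-ER array were below 0. The difference of −4.61 ± 0.92 is therefore not a measured size. When all values under the median of all values were raised to it, the difference was −0.37. The replicates were −3.91 and −5.32, and each array left out in turn gave −5.01 to −4.22. One HOXB4const array with TMX was nearly as low, at 0.88. At 1 h the difference from TMX was 0.44 ± 0.92 and the arrays overlapped.

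Over the 10 genes, 6 were lower and 4 higher after 4 h, with a median difference of −0.41, beside 48.3% lower and a median of 0.02 over all genes. Without the replicate 2 array at 4 h the median was −0.03. The genes Id3, Bambi and Smad7, were lower without overlap of arrays and 0 genes were higher without overlap. By probe set this was 6 of 20 lower and 0 higher, where 15.2% of all probe sets were lower and 14.8% higher without overlap. These counts belong to the comparison for which the genes were proposed, and nothing is read from them. After 1 h, which shares its TMX arrays with the 4 h comparison, 6 genes were lower and 4 higher with a median of −0.18, and without overlap 1 was lower (Tgfbr2) and 1 higher (Id1), beside 11% and 21.1% of all probe sets. In HOXB4const cells 3 were lower and 7 higher with a median of 0.24, beside 47.9% lower over all genes. This direction turned with arrays centred on their median (−0.07) and without the replicate 2 array with TMX (−0.10). Only Bambi was apart, lower without TMX by a difference of −0.15 ± 0.41, beside 9.17% of all probe sets lower and 15.8% higher without overlap. With arrays centred that Bambi difference was −0.46. No gene passed limma's test of the difference between the constructs' 1 h withdrawals. In it 0 of the 20 probe sets had an unadjusted p under 0.05, beside 1698 of all 45037, and nothing is read from that count.

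**Figure D2:**
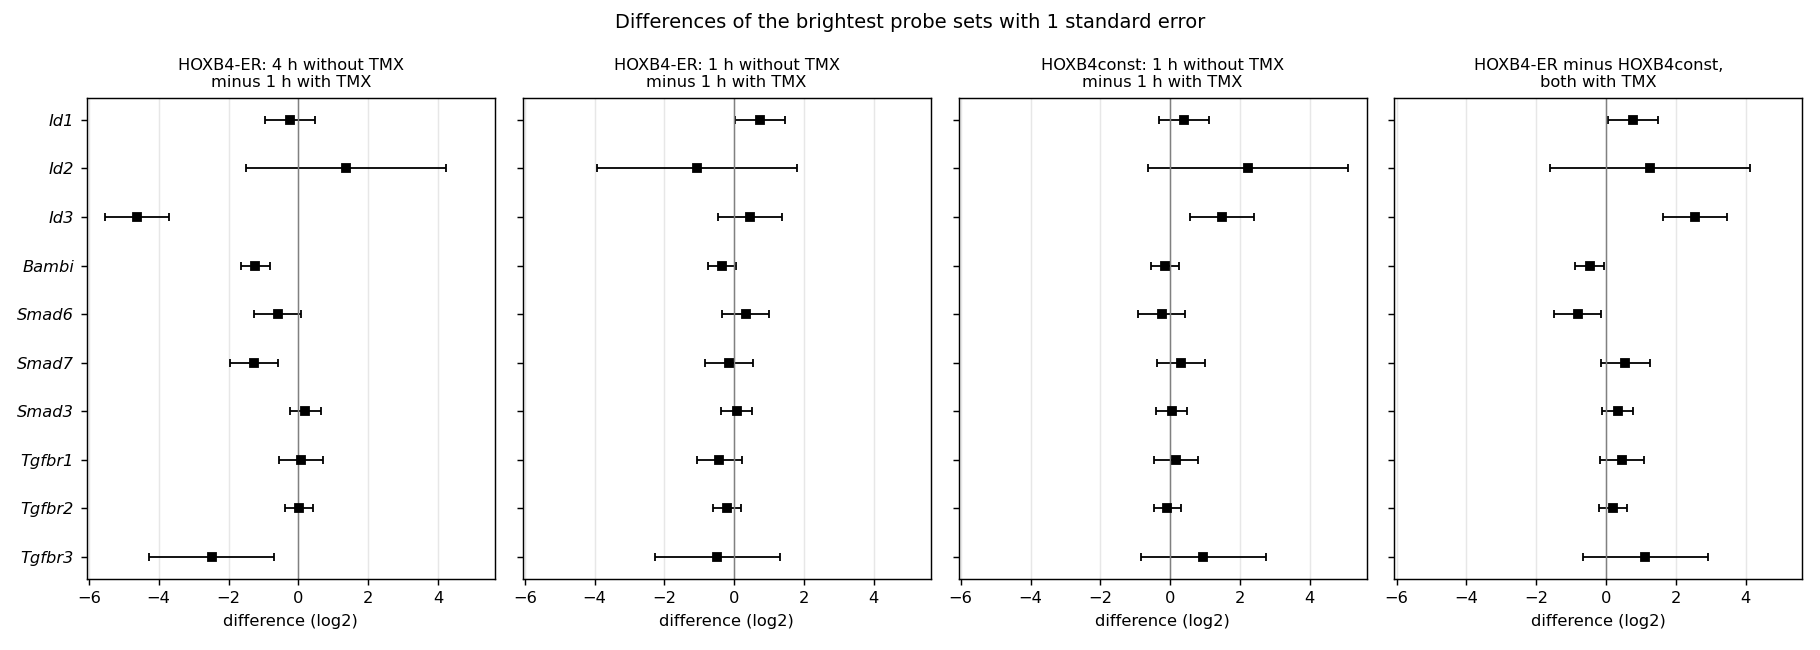
Differences in log2 signal of the brightest probe set of each gene in 4 comparisons, with bars of 1 limma standard error. After 4 h Id3 (−4.61), Tgfbr3 (−2.48), Smad7 (−1.27) and Bambi (−1.23) lie left of 0, while Tgfbr1, Tgfbr2 and Smad3 lie within 0.20 of it. The bars of Id2 are the widest.

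With TMX present, HOXB4-ER cells were compared with HOXB4const cells. Of the 10 genes 8 were higher and 2 lower in HOXB4-ER cells, with a median of 0.50, while over all genes 58.5% were lower. Without the HOXB4const replicate 2 array with TMX the median was −0.03, and with arrays centred it was 0.92. The summed signal of 4 megakaryocyte markers was 3112 and 1381 in HOXB4-ER cells, against 4341 and 4474 in HOXB4const cells. That of the monocyte and macrophage markers was 862 and 10622, against 2085 and 9033, and the part of either was not tested. Id3 had 4.53 and 5.15 in HOXB4-ER cells, against 0.88 and 3.69 in HOXB4const cells, a difference of 2.55 ± 0.92 without overlap that did not pass, and that was 0.37 with values under the median of all values raised to it. Bambi (−0.47 ± 0.41) and Smad6 (−0.82 ± 0.67) were lower without overlap, beside 22.5% of all probe sets, but with arrays centred these differences were −0.05 and −0.40. Id3, Smad3, Tgfbr2 and Tgfbr3 were higher without overlap on their brightest probe sets. By probe set, 5 of 20 were higher and 3 lower without overlap, beside 9.28% and 22.5% of all. With probe set means Tgfbr2 gave −0.10 and Tgfbr3 −0.17, which turns their direction, while Smad3 stayed higher. The HOXB4-ER arrays here are the same as in the withdrawal comparisons, and the constructs' populations differ by transduction as well as by protein.

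Id2 split the arrays by replicate number, while on its brightest probe set the arrays with and without TMX overlapped in every comparison. Its brightest probe set, 1435176_a_at, had 1.65, 0.36, 3.49, 4.85 and 0.47 on replicate 2 arrays of HOXB4-ER with TMX, at 1 h without, at 4 h without, of HOXB4const without and of HOXB4const with TMX. The replicate 1 arrays of the same groups had 7.16, 6.30, 8.06, 5.91 and 5.83. Every replicate 2 array was below every replicate 1 array, with a difference of −4.49 ± 0.76. The HOXB4const pair without TMX was the closest.

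The second probe set, 1422537_a_at, showed the same split, with 1.28, 0.66, 1.05, 0.40 and 2.33 on replicate 2 arrays and 5.62, 5.94, 5.31, 3.41 and 5.15 on replicate 1 arrays (−3.94 ± 0.43). On 1453596_at, replicate 2 was lower in the 3 HOXB4-ER groups only, and the difference was −1.29 ± 0.67. In limma's test over all probe sets the adjusted p was 0.164, 0.134 and 0.458, so that no probe set of Id2 passed. With dim probe sets left out the first had an adjusted p of 0.0326, where 850 probe sets (3.77%) passed. With a variance trend over intensity, the first 2 had 0.000804 and 0.00654, where 2728 probe sets (6.06%) passed. On the deposited values 3.76% of all probe sets were lower and 2.74% higher on replicate 2 without overlap.

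**Figure D3:**
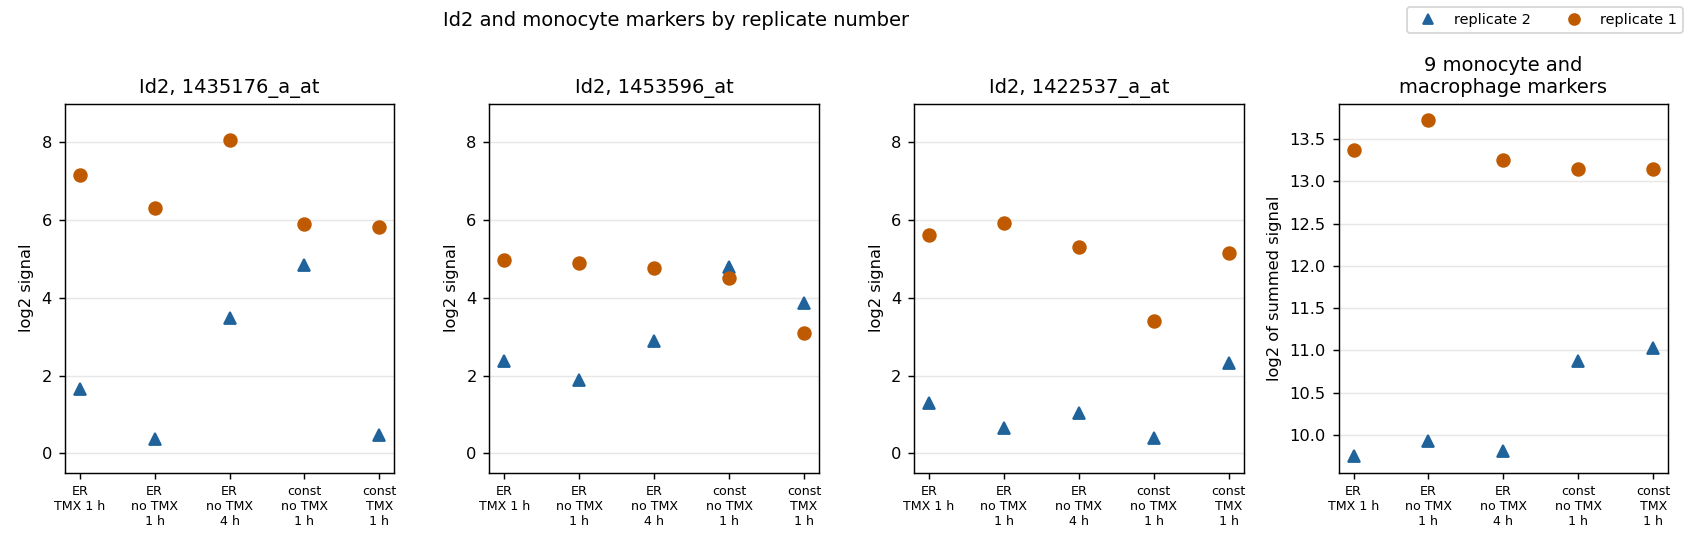
Log2 signal of the 3 Id2 probe sets and log2 of the summed signal of 9 monocyte and macrophage markers in the 5 groups, with triangles for replicate 2 and circles for replicate 1. Replicate 2 lies below replicate 1 in every group on 1435176_a_at, on 1422537_a_at and for the markers.

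The monocyte and macrophage markers moved with the replicate number as Id2 did. Of the 9 measured, 9 were lower on replicate 2 and 7 without overlap. Csf1r, the receptor of macrophage growth factor, averaged 7.60 on replicate 2 and 10.96 on replicate 1, and the lysozyme gene Lyz2 averaged 9.37 and 12.53 on replicate 2 and replicate 1. Of 3 measured markers of lineages that the sort should remove, 2 were lower on replicate 2. Itgam averaged 4.50 on replicate 2 and 7.29 on replicate 1, and the dim Cd79a 1.85 and 3.81. Cd3e, also dim, went the other way with 3.97 and 3.10. Of the 4 genes Kit, Cd34, Flt3 and Ptprc, 3 were lower on replicate 2, and Flt3 without overlap (6.48 and 7.64). Of 4 mast cell markers 3 were lower, and Mcpt8 without overlap (9.84 and 10.94). No marker of stroma and endothelium or of megakaryocytes was apart by replicate number. The gap between the Gapdh ends also moved with the number. The part of the marked cell types or of that gap in the Id2 levels was not tested. Among HOXB4-ER arrays the marker sum was 862 and 10622 with TMX, 975 and 13508 after 1 h without and 895 and 9796 after 4 h without. In HOXB4const cells it was 1875 and 9036 without TMX, against 2085 and 9033 with TMX.

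Because of this split the withdrawal differences of Id2 had large errors, 1.37 ± 2.87 after 4 h and −1.07 ± 2.87 after 1 h. Within replicate numbers, the 4 h array was above that with TMX in both, by 1.84 and 0.90 on 1435176_a_at. The 1 h array without TMX was below that with TMX in both, with differences of −1.30 and −0.85. Either mean difference turned with 1 array left out. It was −1.38 after 4 h without the HOXB4-ER replicate 2 array with TMX, and 1.90 after 1 h without the replicate 2 array at 1 h without TMX. After 4 h the other probe sets gave 0.14 ± 1.24 and −0.27 ± 2.41. In HOXB4const cells 1453596_at had 4.79 and 4.51 without TMX, against 3.87 and 3.11 with TMX. That difference of 1.16 ± 1.24 was without overlap, beside 15.8% of all probe sets higher, and did not pass. In the same comparison 1422537_a_at went the other way, by −1.84 ± 2.41 (−1.94 and −1.74 within replicate numbers). The brightest, 1435176_a_at, gave 2.23 ± 2.87, nearly all from replicate 2 (4.38, against 0.08 for replicate 1). The arrays of the 2 replicate numbers overlapped for Id1 and Id3. Id1 was lower on replicate 2 in 5 of 5 groups, by a difference of −0.72 ± 0.36 (limma adjusted p = 0.448), and Id3 in 3 of 5 groups, by −0.39 ± 0.60 (limma adjusted p = 0.818). For Bambi it was −0.09 ± 0.23.

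The genes most like each ID gene were sought among the 11340 other genes whose brightest probe set was at or above the median, by Pearson correlation over the 10 arrays (11341 for Id3, which is itself below it). The arrays share groups and replicate numbers, so the values are a description. For Id1 these were Ppp1r35 (0.96), Med12l (0.94) and Mospd1 (0.92). For Id2 they were Smim14 (0.96), Ahnak (0.95) and Nfkbiz (0.95), and without the 2 arrays farthest from the median of Id2 they were 0.92, 0.94 and 0.95. For Id3 they were Tle1 (0.86), Grwd1 (0.86) and Lpcat3 (0.84). Without its 2 farthest arrays Grwd1 was at 0.67, and for Id1, Mospd1 was at 0.64.

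Another 57 measured genes of the pathway, of 60 listed, were mixed in direction after 4 h. Of these 31 were lower and 26 higher with a median of −0.07, and 0 passed in any comparison. By role, 7 of 13 ligands, 4 of 10 receptors, 3 of 5 other Smads, 10 of 15 antagonists and corepressors, 4 of 9 response genes and 3 of 5 partners of ID proteins were lower. Without overlap 6 were lower and 6 higher, beside 15.2% and 14.8% of all probe sets. The medians of the 6 lists lay between −0.19 (Smads) and 0.08 (receptors).

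The ligand gene Bmp6 was dim, with 0.89 and 0.57 at 4 h without TMX, against 3.51 and 3.87 with TMX. It was already low after 1 h, at 1.96 and 0.54 (−2.44 ± 0.63 at 1 h, limma adjusted p = 0.729), and as for Id3 the low side is too dim for a size. The activin receptor gene Acvr1b had 9.92 and 9.20 at 4 h, against 8.80 and 8.50 with TMX (0.90 ± 0.47). Grem1, which encodes a BMP antagonist, had 2.15 and 3.70 at 4 h, against 4.35 and 5.08 with TMX (−1.79 ± 0.85).

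The fourth ID gene, Id4, ran opposite to Id3 among dim values. It had 2.88 and 3.88 at 4 h without TMX, against -0.25 and -0.33 with TMX, and 1.06 and 5.07 in HOXB4const cells without TMX against 4.04 and 3.23 with TMX. Among partners of ID proteins, the E protein gene Tcf3 had 7.16 and 7.57 at 4 h, against 7.97 and 7.95 with TMX (−0.60 ± 0.64). The haematopoietic helix-loop-helix gene Lyl1 had 10.66 and 10.10, against 9.74 and 9.40 with TMX (0.81 ± 0.46). Smad5, the BMP-branch Smad with the smallest p of its list, gave 0.31 ± 0.48 with overlapping arrays.

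**Figure D4:**
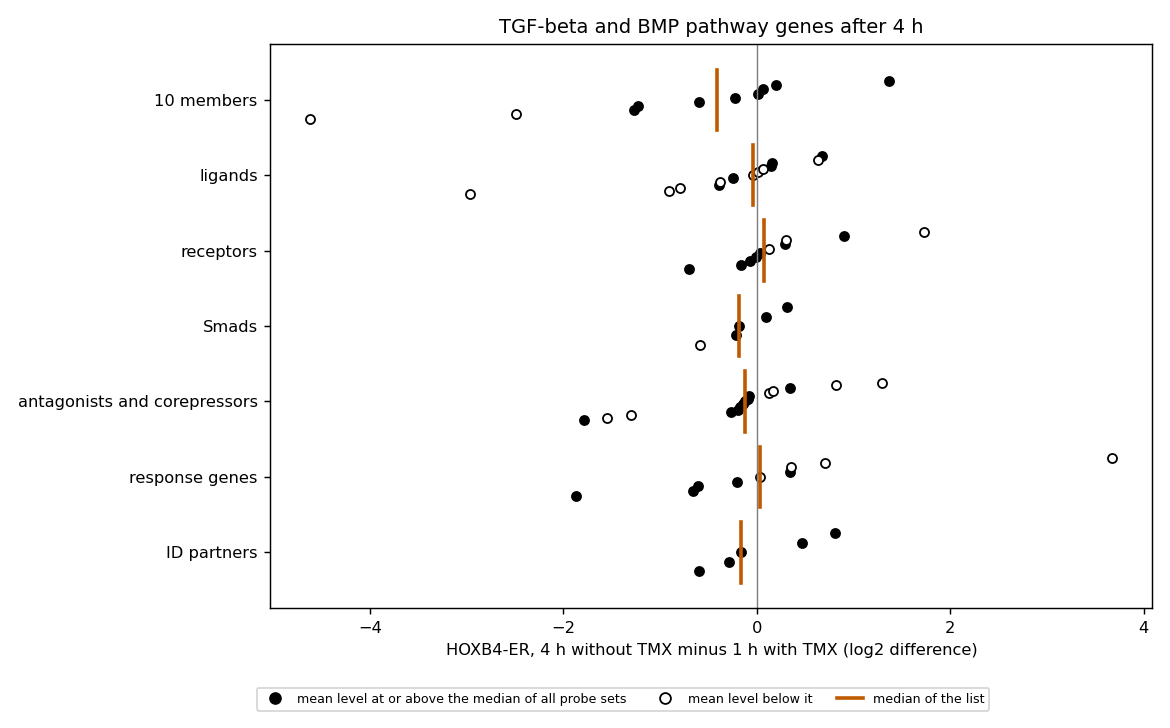
Difference in log2 signal between HOXB4-ER cells at 4 h without TMX and at 1 h with TMX for the 10 genes and the 57 other pathway genes, by list. Filled points are brighter probe sets, open points dimmer ones, split at a mean level of 4.05, and orange lines are medians, −0.41 for the 10 genes. The widest differences, Id3, Bmp6 and Id4, are open points.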

How the data were processed

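Total RNA of 10 samples was copied with T7 polymerase into labelled cRNA, per the labels' protocols, and measured on Affymetrix mouse arrays. The authors deposited log2 signals for every probe set. GCOS and RMA are both named in the submitters' processing notes, with no role. The trimmed mean signal was 100.0 on every array, as under GCOS global scaling, so the values were used as deposited. Of 45101 probe sets, 64 controls were left out, and 34945 of the others have 1 gene symbol.

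In limma 3.58.1 (R 4.3.3), each of 5 groups had its own mean and all arrays shared 1 spread (5 residual and 2.21 prior degrees of freedom). Tests were two-sided, with Benjamini-Hochberg adjustment over the whole table of a comparison and a threshold of 0.05. Replicate numbers were compared in a fit of group and number (4 residual and 1.82 prior degrees of freedom). The fit was run on simulated data with independent noise and large shifts added to brighter probe sets. That run says nothing about smaller differences or about replicate differences shared between groups. The members, pathway lists and marker lists were chosen with earlier results of these data known. Named pathway genes are among the 4 of the smallest p after 4 h in their list. The motif GTCTAGAC was added after the windows were read. Some listed genes and markers, Ly6a among them, were not analysed here. The number of arrays limits the precision. The p-values between groups set a difference against the spread between arrays of a group, and the labels do not say what that spread holds. Those between replicate numbers set it against the variation of the replicate difference from group to group. Alternatives were other scalings, a floor, a filter on dim probe sets, probe set means, a variance trend, the replicate number as a block and each array left out.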

Additional observations from a re-analysis of the deposited data

How the results depend on the processing

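No probe set passed in any comparison with arrays centred on their median, quantile normalisation, probe set means, each array left out (0 in every case), or the replicate block, which gave 0 calls in each of the 6 comparisons between groups. The replicate differences correlated between groups in 10 of 10 pairs (0.210 to 0.527, median 0.314), and the labels do not say what a number shares. With values under the median of all values raised to it, the probe sets passing were 9 (4 h withdrawal), 29 (1 h withdrawal), 30 (4 h against 1 h), 90 (HOXB4const withdrawal), 81 (difference of the constructs' withdrawals), 23 (constructs with TMX) and 267 (replicate numbers), and the members' median for 4 h against 1 h was −0.19, beside −0.90. For replicate numbers, 850 passed with dim probe sets left out and 2728 with the variance trend. The cause was not tested. Leaving out 1 array moved the members' median over −0.99 to −0.03 (4 h) and −0.27 to 0.0047 (1 h). For 4 h against 1 h it ran over −1.13 to −0.20, the last without the replicate 2 array at 4 h. The ranges were −0.10 to 0.43 (HOXB4const) and −0.63 to −0.10 (difference of withdrawals). They were −0.03 to 0.65 between constructs and −0.77 to −0.43 between replicate numbers. The arrays' medians differed by 0.39 at 1 h, −0.41 for 4 h against 1 h, 0.31 in HOXB4const cells, −0.42 between constructs and −0.32 between replicate numbers, and with arrays centred the members' median was −0.57, −0.49, −0.07, 0.92 and −0.27, which turns the HOXB4const direction. With probe set means the 1 h median was 0.34, which turns its direction too. Of the single members' values, 1088 kept their direction or moved by less than the spread between replicates, 76 moved further and 2, both of Id2 between replicate numbers, passed. Low signal limits Id3, Tgfbr3, Bmp6 and Id4, whose sizes are not measured.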
